A study of Mus musculus with 463 samples.

Results

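The comparison set E14.5 pancreas cells with a low Ngn3-GFP signal against E10.5 Pdx1-GFP+ pancreas cells of mouse embryos. It used 8 bulk RNA-seq libraries of the 463 samples of the series, chosen by their labels: 2 dorsal and 2 ventral libraries at each stage. The E10.5 cells carried a green fluorescent protein (GFP) reporter driven by Pdx1 and were sorted as GFP+, and the E14.5 cells carried a GFP reporter of Ngn3 (gene symbol Neurog3) and were sorted for low signal. Per the labels' protocols, every bulk library used poly(A) RNA of sorted cells and a directional library kit. Another 8 bulk libraries (E14.5 Ngn3-high cells and E17.5 Insulin-RFP beta cells) entered the model to estimate the spread between libraries. They also took part in the filter on low counts and in the scaling, but were not compared. The 2 sides of the pancreas were averaged in the main test, each side was tested alone, and the difference between the sides was tested too. Stage, reporter and sequencing depth changed together, and their parts in any difference cannot be told apart. The labels do not say whether the 2 libraries of a group came from separate embryos, so p-values measure only the spread between libraries, which may be technical.

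The pancreas arises from a dorsal and a ventral bud of the foregut endoderm, and the early buds consist of multipotent cells that carry the transcription factor Pdx1. As the epithelium branches it separates into acinar tips and a bipotent trunk that gives ducts and, through a brief rise of the transcription factor Neurog3, endocrine cells. Before that wave, the dorsal bud forms some early endocrine cells, many of which make glucagon. Acinar enzyme genes are switched on by the PTF1 complex, in which Ptf1a and an E protein bind an E-box and Rbpj or its paralog Rbpjl binds a neighbouring TGGGAA box.

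Levels are in CPM, reads scaled to a common adjusted library total, and changes are log2 of Ngn3-low over Pdx1+. Standard errors (SE) and p-values are those of the quasi-likelihood F test of edgeR, adjusted by Benjamini and Hochberg's method over 17690 genes, and a gene is said to have risen or fallen where the adjusted p was under 0.05. Means are given ± SD. The Pdx1+ libraries held 8779418 to 11047808 reads on genes and the Ngn3-low libraries 14538594 to 15872088. Between 20235 and 20747 genes had a read in each.

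The E10.5 libraries stood apart from the later ones in reads on antisense genes. Genes annotated as antisense took 0.72% to 0.75% of reads in the 4 Pdx1+ libraries and 0.12% to 0.134% in the 4 Ngn3-low libraries, with no overlap. Among the tested genes, 548 had exons under those of a tested opposite-strand gene with a mean of 100 CPM or more in Ngn3-low libraries. Of these, 72.4% fell and 12.4% rose, with a median log2 change of -1.95, while the median over their partners was 0.09. The 1769 genes whose partner stood at 10 to 100 CPM had a median of -0.54, and the 1091 genes whose partner was under 1 CPM had a median of -0.05. A gene that passed the filter on low counts through its Pdx1+ reads alone had to fall, so nothing is read from the size of these medians. Genes that share at least 80% of their 50-base words with other genes were also low, with a median of -2.43 over 262 genes. The kit is directional by its label, but whether reads were counted by strand is not stated in the sources used here. The part of this pattern in a fall of an overlapped or shared gene was not tested, so changes of such genes are uncertain. Of the genes named here and in the closing section, these are Afm, Axin2, Baiap3, Bicc1, Bmp4, Ccnd1, Cdk6, Cdkn1a, Cdkn1c, Cela3b, Cftr, Chrd, Cldn3, Ctgf, Dll1, Dll4, Eno1, Etv5, Fgf10, Fgfr1, Fgfr3, Gapdh, Gata6, Ghrl, Gins2, Gli1, Gpr126, Hmga2, Inpp5a, Itgb4, Krt7, Krt8, Lin28a, Ndrg1, Neurod1, Neurog3, Nkx2-2, Nkx6-2, Notch1, Nppa, Nrarp, Ocel1, Pcsk2, Pgk1, Phykpl, Pkhd1, Prom1, Prox1, Psmb8, Ptf1a, Rarb, Rbpjl, Reln, Rpgrip1, Shh, Slc15a3, Slc28a3, Snx22, Tap2, Thbs1, Tlcd1, Vwa5b2, Wnk3, Wnt7b and Yap1. For some lists, counts are also given for what are called unshared genes here. These are the 11114 genes with under 1% of exonic bases under opposite-strand exons and under 20% of shared words. Of those, 38.2% rose and 26.8% fell, with a median of 0.1. When scaling and test were repeated on those genes alone, an alternative added after the data were seen, 3510 rose and 3714 fell, and log2 changes moved by a median of -0.13.

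**Figure D1:**
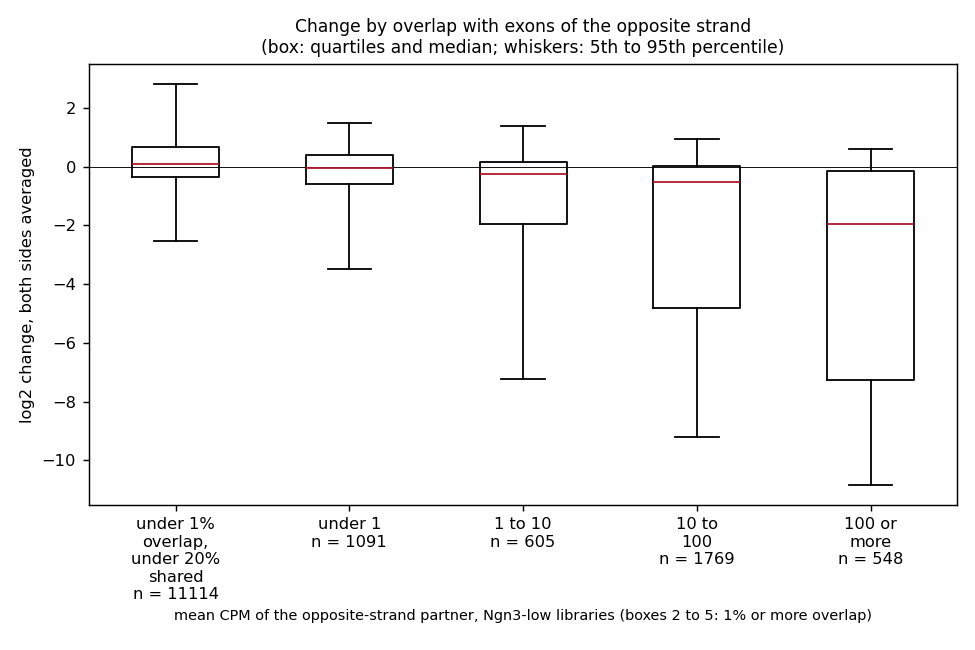
Log2 change of Ngn3-low over Pdx1+ libraries, sides averaged (y axis), by the mean CPM of the opposite-strand partner in the Ngn3-low libraries (x axis, classes). Boxes show the median and quartiles over genes and whiskers the 5th to 95th percentile: the median is 0.1 for genes with little overlap and -1.95 where the partner stands at 100 CPM or more.

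Over both sides, 12028 of 17690 tested genes (68% of them) differed: 5851 (33.1%) rose and 6177 (34.9%) fell in Ngn3-low cells. All 4 Ngn3-low libraries lay above all 4 Pdx1+ libraries for 4739 genes (26.8%) and below them for 5046 (28.5%). With a change of over 2-fold, 2514 (14.2%) rose and 3397 (19.2%) fell. On the dorsal side 4920 (27.8%) rose and 5704 (32.2%) fell, and on the ventral side 4833 (27.3%) rose and 4983 (28.2%) fell. The 2 sides called 7880 genes in common, which is 74.2% of the dorsal and 80.3% of the ventral calls. Of those, 7625 changed in the same direction and 255 in opposite directions. The change itself differed between the sides for 2179 genes, of which 1345 (7.6% of all tested) had a higher ventral than dorsal change and 834 (4.71%) a lower one. The split was 1091 and 1045 in the fit of the 8 compared libraries alone, 1478 and 1392 with no filter on low counts, and 1196 and 959 under upper-quartile scaling. The total was 1330 without dorsal Pdx1+ library 2. With the background this high, a count of called members of a list is read against these percentages.

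**Figure D2:**
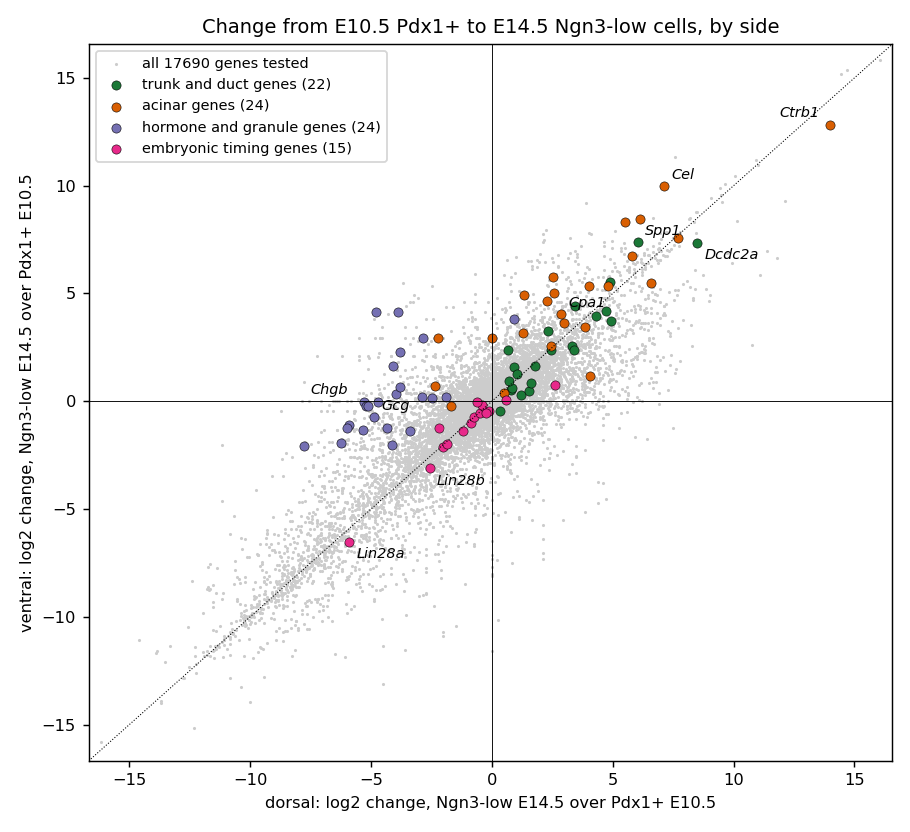
Log2 change on the dorsal side (x axis) and on the ventral side (y axis) for the 17690 tested genes, one point per gene, with members of 4 lists in colour and equal changes on the dotted line. Across genes Pearson's r was 0.85, and the hormone and granule genes lie further below 0 on the dorsal than on the ventral axis.

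The sorted labels were checked first. Pdx1 (GRCm38 chromosome 5, 147269959 to 147275848) stood at 236 and 244 CPM in dorsal and 99.5 and 112 CPM in ventral Pdx1+ libraries, and at 166 and 152 CPM in dorsal and 145 and 160.4 CPM in ventral Ngn3-low libraries. It was detected in all libraries, and the 4 Ngn3-low libraries lay between the dorsal and the ventral Pdx1+ libraries. It thus fell on the dorsal side (log2 -0.59, SE 0.09, adjusted p = 4.59e-05) and rose on the ventral side (0.53, SE 0.09, adjusted p = 0.000163), with no call on average (-0.03, adjusted p = 0.666). Neurog3, which starts endocrine commitment, stood at 87.4 and 92.0 CPM in dorsal and 11.1 and 7.15 CPM in ventral Pdx1+ libraries, and at 98.4 and 149 CPM in dorsal and 108 and 126 CPM in ventral Ngn3-low libraries. The Ngn3-low cells carried Neurog3 RNA at the level of the dorsal Pdx1+ cells or above it, and only the ventral Pdx1+ libraries were far lower. The log2 change was 0.47 on the dorsal and 3.70 on the ventral side. Of the exonic bases of Neurog3, 16.3% lie under the opposite-strand gene Fam241b.

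**Figure D3:**
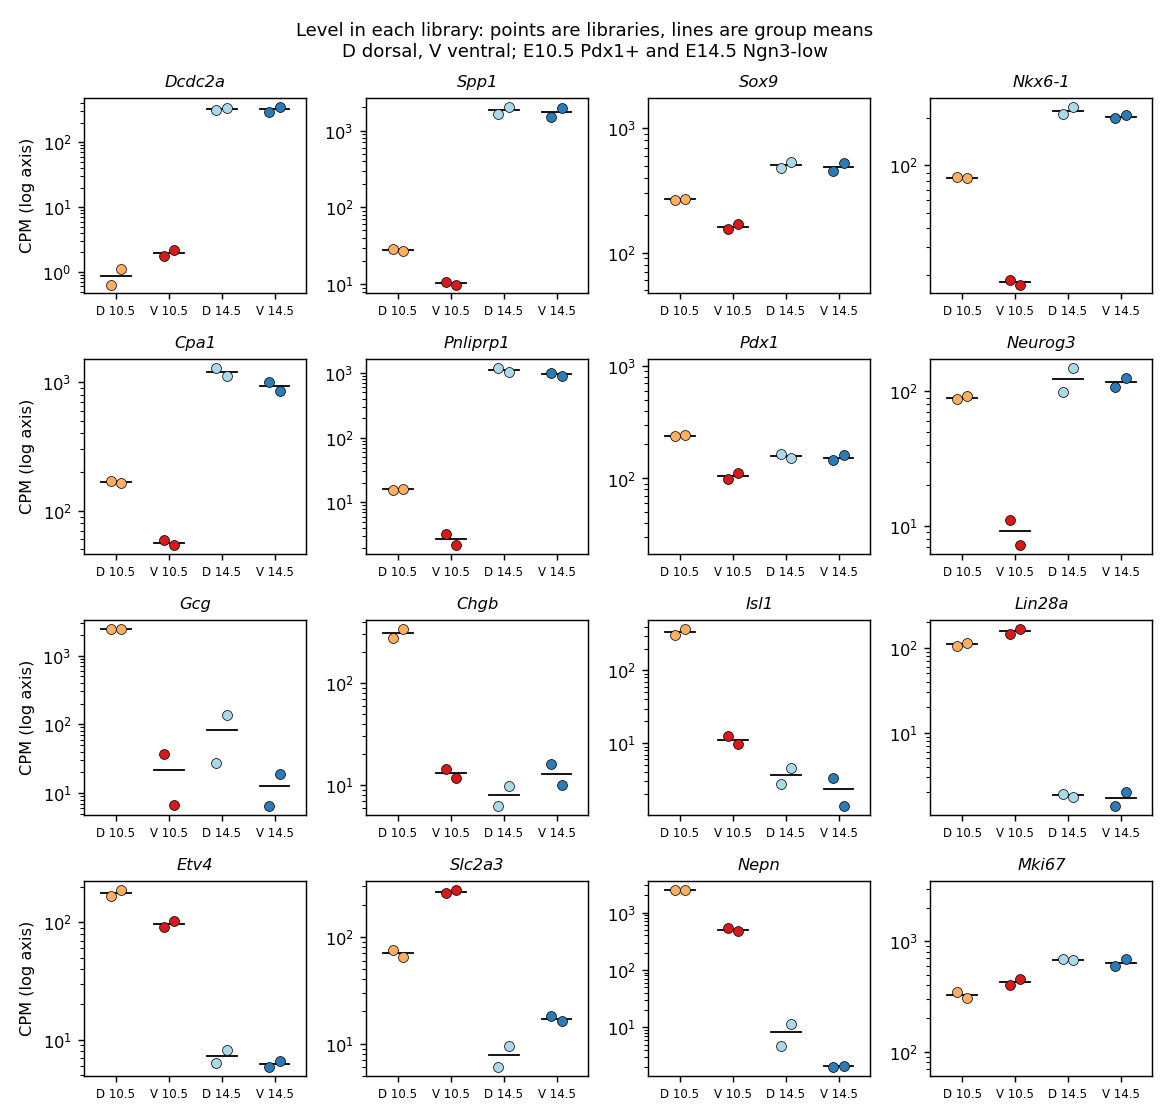
Level in CPM (log axis) of members from each role in the 8 libraries, one point per library, with lines at the group means and dorsal (D) and ventral (V) groups apart. Duct and acinar genes are higher in all 4 Ngn3-low libraries, and hormone genes are highest in the 2 dorsal Pdx1+ libraries.

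Genes of the trunk and duct epithelium rose together. Of 22 tested members, 21 rose and none fell, with a median log2 change of 2.05 against -0.02 over all genes. Of the 15 unshared members, 14 rose. Their summed level was 1960 to 2140 CPM over the Pdx1+ libraries and 6470 to 7850 CPM over the Ngn3-low libraries, with no overlap. Dcdc2a, a microtubule-binding protein of the primary cilium (GRCm38 chromosome 13, 25056004 to 25210706), stood at 0.643 and 1.10 CPM in dorsal and 1.74 and 2.16 CPM in ventral Pdx1+ libraries, and at 308 and 337 CPM in dorsal and 291 and 347 CPM in ventral Ngn3-low libraries. All 4 Ngn3-low libraries exceeded every Pdx1+ library by more than 100-fold, and the log2 change was 7.92 (SE 0.16, adjusted p = 5.45e-14). Spp1, the secreted glycoprotein osteopontin (GRCm38 chromosome 5, 104435118 to 104441050), stood at 28.3 and 27.3 CPM in dorsal and 10.7 and 9.89 CPM in ventral Pdx1+ libraries, and at 1631 and 2026 CPM in dorsal and 1516 and 1943 CPM in ventral Ngn3-low libraries. It was already higher in dorsal than in ventral Pdx1+ cells and rose on both sides, by 6.04 dorsally and 7.40 ventrally.

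Sox9, the transcription factor that maintains pancreatic progenitors and later marks ducts, stood at 267 and 272 CPM in dorsal and 154 and 169 CPM in ventral Pdx1+ libraries, and at 480.0 and 532 CPM in dorsal and 457 and 524 CPM in ventral Ngn3-low libraries. The groups did not overlap, and the log2 change was 1.25 (SE 0.13, adjusted p = 7.01e-07). The mucin Muc1 rose by 3.93 and the epithelial transcription factor Ehf by 4.34. Clu, the secreted chaperone clusterin, rose by 2.79. Pkhd1, the cilium protein fibrocystin (4.13), and Bicc1, an RNA-binding protein of duct cells (2.92), rose too. The keratins rose less: Krt19 by 1.02, Krt18 by 0.74 and Krt8 by 0.67. Cftr, the chloride channel of mature ducts, was still near the lower limit, at 0.213 ± 0.0949 CPM in Pdx1+ and 4.81 ± 2.76 CPM in Ngn3-low libraries (n = 4 each). Ambp, a plasma protein precursor, was the member that did not pass the test on average (-0.08, adjusted p = 0.255). It rose dorsally by 0.32 and had a ventral change of -0.47.

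Acinar genes rose as well. Of 24 tested members 20 rose and 1 fell, with a median of 3.55, and 16 of the 19 unshared members rose. Their sum was 232 to 442 CPM in the Pdx1+ libraries and 3790 to 5220 CPM in the Ngn3-low libraries. In bulk samples, fewer cells of a type and less RNA per cell cannot be told apart, here and in every result below. Most acinar genes rose, and the 250 bases before the start site of 5 that did are printed. They come from RefSeq (GRCm38.p6), 5′ to 3′ on the gene's strand. Capitals mark the TGGGAA box of Rbpj or Rbpjl (or its reverse complement TTCCCA) and the E-box CACCTG (or CAGGTG). The TTCCCA and CACCTG forms can overlap at CA, and each was then counted.

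Cel, chr2:28563404-28563653, minus strand: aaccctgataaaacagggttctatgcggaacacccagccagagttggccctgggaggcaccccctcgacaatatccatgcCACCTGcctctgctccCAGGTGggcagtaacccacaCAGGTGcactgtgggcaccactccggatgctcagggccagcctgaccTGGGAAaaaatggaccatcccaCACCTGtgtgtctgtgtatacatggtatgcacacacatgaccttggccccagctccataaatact

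Rbpjl, chr2:164402944-164403193, plus strand: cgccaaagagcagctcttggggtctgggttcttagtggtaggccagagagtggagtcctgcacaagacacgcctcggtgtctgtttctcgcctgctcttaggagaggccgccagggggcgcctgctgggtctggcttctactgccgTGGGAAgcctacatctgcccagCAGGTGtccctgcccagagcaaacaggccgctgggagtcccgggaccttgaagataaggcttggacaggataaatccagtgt

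Cpa1, chr6:30638968-30639217, plus strand: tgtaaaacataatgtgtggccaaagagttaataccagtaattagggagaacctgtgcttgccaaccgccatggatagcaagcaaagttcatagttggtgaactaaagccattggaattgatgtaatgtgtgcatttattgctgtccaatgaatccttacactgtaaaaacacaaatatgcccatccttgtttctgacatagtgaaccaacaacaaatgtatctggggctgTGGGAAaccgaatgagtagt

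Pnliprp1, chr19:58728637-58728886, plus strand: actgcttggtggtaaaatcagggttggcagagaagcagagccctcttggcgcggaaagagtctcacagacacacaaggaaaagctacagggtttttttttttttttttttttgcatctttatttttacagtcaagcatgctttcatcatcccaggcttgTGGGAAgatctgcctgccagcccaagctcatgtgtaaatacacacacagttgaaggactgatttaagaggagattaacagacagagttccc

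Ctrb1, chr8:111691011-111691260, minus strand: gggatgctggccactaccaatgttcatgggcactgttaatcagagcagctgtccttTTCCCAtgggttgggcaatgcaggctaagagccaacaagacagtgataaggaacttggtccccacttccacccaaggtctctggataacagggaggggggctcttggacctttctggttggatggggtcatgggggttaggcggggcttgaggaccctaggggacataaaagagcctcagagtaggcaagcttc

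Of the 24 acinar genes, 19 matched a RefSeq entry outside chromosome 18, with 20 promoters among them. Entries on chromosome 18 were left out for the acinar genes but kept among all promoters. A TGGGAA box on either strand was in 13 of these 20, against 21.6% of all 32851 promoters, and a CACCTG E-box in 12, against 17.2%. Both were in 6, against 3.91%. Cel held 1 TGGGAA box with its first base at -87 and 4 E-boxes, and Rbpjl held both kinds, at -104 and -82. The Cpa1, Pnliprp1 and Ctrb1 windows held a TGGGAA box only. All 5 printed windows thus held this box, while those of Cpb1, Cela1, Cela3b, Pnliprp2, Bhlha15 and Nr5a2 held none. The 20 promoters include that of Ctrl, which fell. A match is a run of letters in this window and says nothing of binding.

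Among the enzymes, Cpa1, a carboxypeptidase that also marks the multipotent tips, stood at 171 and 164 CPM in dorsal and 59.3 and 53.7 CPM in ventral Pdx1+ libraries, and at 1294 and 1112 CPM in dorsal and 1012 and 862 CPM in ventral Ngn3-low libraries. It was present at E10.5, at a higher level dorsally, and rose by 3.45 on average (SE 0.09, adjusted p = 4.28e-13). Pnliprp1, a lipase-related protein, stood at 15.8 and 16.2 CPM in dorsal and 3.28 and 2.16 CPM in ventral Pdx1+ libraries, and at 1187 and 1038 CPM in dorsal and 1010.0 and 898 CPM in ventral Ngn3-low libraries, a change of 7.30 (SE 0.14, adjusted p = 5.45e-14). Its level in every Ngn3-low library was at least 10 times that of the highest Pdx1+ library. Ctrb1, the digestive protease chymotrypsinogen, had 3 reads over all Pdx1+ libraries and 55841 over the Ngn3-low libraries, a ratio of 11900 (95% interval 4060 to 57500, counting error only). Cel, a bile salt lipase, stood at 1.29 and 0.904 CPM in dorsal and 0.205 and 0.0831 CPM in ventral Pdx1+ libraries, and at 172 and 138 CPM in dorsal and 166 and 130.3 CPM in ventral Ngn3-low libraries, so it rose on both sides from a level near the floor.

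Other secretory products were still scarce. Cela3b, an elastase, had no read in the Pdx1+ libraries and 119 in the Ngn3-low libraries, at least 25.3-fold higher. Cpb1, a carboxypeptidase, had 1 and 184 reads, a ratio of 117 (interval 20.8 to 4660). Zymogen granule genes of late acini stayed low: Gp2 was at 0.635 and 0.324 CPM and Zg16 had no read at E10.5 and 2 at E14.5. Ctrl, a chymotrypsin-like protease, was the member that fell (-0.95), from 1.45 to 0.824 CPM, and it did not pass without dorsal Ngn3-low library 2 (-0.74, adjusted p = 0.0516). Of the regulators, Bhlha15 (Mist1), which promotes secretory maturation, rose from 2.72 ± 1.64 to 61.5 ± 15.3 CPM (log2 4.67, n = 4 each). Rbpjl, the acinar subunit of PTF1, rose by 2.23. Nr5a2, a nuclear receptor of acinar cells, rose by 0.46. Ptf1a itself stood at 39.6 and 40.9 CPM in dorsal and 13.2 and 12.8 CPM in ventral Pdx1+ libraries, and at 37.7 and 25.2 CPM in dorsal and 29.7 and 21.2 CPM in ventral Ngn3-low libraries. It was lowest in the ventral Pdx1+ libraries, and did not pass the test on average (0.31, adjusted p = 0.0881). It did pass without dorsal Ngn3-low library 2 (0.44, adjusted p = 0.0203) or without ventral Ngn3-low library 2 (0.42, adjusted p = 0.027). Of its exonic bases, 40.4% lie under Ptf1aos. The receptor Cckar, through which cholecystokinin acts on acinar cells, belonged to no list and rose by 6.05.

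Endocrine products moved the other way, and mainly on the dorsal side. Of 24 hormone and granule genes, 23 fell and none rose dorsally, with a median of -4.22. Ventrally 6 fell and 4 rose, with a median of -0.02. The change differed between the sides for 20 of the 24, each time higher ventrally. Gcg, the precursor of glucagon (GRCm38 chromosome 2, 62474530 to 62483650), stood at 2440.0 and 2392 CPM in dorsal and 36.5 and 6.65 CPM in ventral Pdx1+ libraries, and at 27.8 and 138 CPM in dorsal and 6.41 and 18.7 CPM in ventral Ngn3-low libraries. Both dorsal Pdx1+ libraries were more than 10 times higher than any other library, while the ventral Pdx1+ and the Ngn3-low libraries overlapped. It fell dorsally by 4.87 on the log2 scale (SE 0.69, adjusted p = 3.08e-05), and the ventral change was -0.73 (adjusted p = 0.414). The difference of the 2 changes (4.14, adjusted p = 0.0104) did not pass without ventral Ngn3-low library 2 (3.16, adjusted p = 0.112).

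The other hormones were at lower levels. Pyy, the gut and islet peptide YY, stood at 589 and 628 CPM in dorsal and 20.4 and 14.7 CPM in ventral Pdx1+ libraries, and at 4.21 and 11.8 CPM in dorsal and 5.18 and 3.85 CPM in ventral Ngn3-low libraries. It was lower at E14.5 on both sides, and its fall was 6.25 on the log2 scale dorsally and 1.95 ventrally. Ghrl, which encodes ghrelin, fell by 7.78 dorsally and 2.08 ventrally. Ins1, an insulin gene, had a dorsal change of -3.78 and a ventral one of 2.27, with means of 7.91 CPM over Pdx1+ and 1.13 CPM over Ngn3-low libraries. The granule proteins Chgb (dorsal -5.27, ventral -0.01) and Ptprn2 (dorsal -5.12, ventral -0.21) fell on the dorsal side and did not pass the test ventrally. The prohormone convertase gene Pcsk2 fell on both sides.

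Of 12 alpha cell genes, 10 fell dorsally and 8 ventrally. The change differed between the sides for 10, each higher ventrally. Slc38a5, an amino acid transporter of alpha cells, stood at 2716 and 2839 CPM in dorsal and 69.1 and 39.4 CPM in ventral Pdx1+ libraries, and at 13.7 and 34.6 CPM in dorsal and 6.93 and 5.75 CPM in ventral Ngn3-low libraries. The dorsal Pdx1+ libraries were highest and the 2 stages did not overlap, with a change of -4.97 on average (SE 0.24, adjusted p = 3.28e-10). The transcription factors Irx1 (-5.65) and Irx2 (-5.23), which mark alpha cells, fell on both sides. Gc, a vitamin D carrier of alpha cells, was the member that rose (0.98), and Ttr, which encodes transthyretin, did not pass the test (-0.04).

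Regulators of endocrine commitment changed in both directions. Of 22 tested members 11 rose and 9 fell on average, with a median of 0.32, and 7 rose and 13 fell dorsally against 13 and 5 ventrally. Among the 14 unshared members 5 rose and 8 fell on average, with a median of -1.88. The difference between the sides was called for 19 of the 22, each higher ventrally. Isl1, a factor of differentiating endocrine cells, stood at 306 and 372 CPM in dorsal and 12.4 and 9.72 CPM in ventral Pdx1+ libraries, and at 2.73 and 4.51 CPM in dorsal and 3.30 and 1.36 CPM in ventral Ngn3-low libraries. It fell on both sides, as did Neurod1 (-4.11) and Pax6 (-4.10). Nkx6-1, which is needed for beta cells and is carried by trunk cells, stood at 84.1 and 82.5 CPM in dorsal and 18.5 and 17.4 CPM in ventral Pdx1+ libraries, and at 212 and 236 CPM in dorsal and 199.6 and 210.1 CPM in ventral Ngn3-low libraries. All 4 Ngn3-low libraries were above the Pdx1+ libraries, with a change of 2.47 (SE 0.22, adjusted p = 1.55e-07). Fev, a factor of cells that have passed the Neurog3 stage, fell dorsally by 5.55 on the log2 scale and had a ventral change of 0.11. Insm1, a zinc finger factor of endocrine precursors, fell dorsally by 1.09 and rose ventrally by 2.26. Cdkn1a, an inhibitor of the cell cycle, rose by 1.39.

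Transcription factors of the early pancreas did not move as a group: 9 of 23 rose and 9 fell, with a median of 0.01. Foxa1, a pioneer factor of endoderm, stood at 28.6 and 31.1 CPM in dorsal and 45.1 and 47.5 CPM in ventral Pdx1+ libraries, and at 0.743 and 8.27 CPM in dorsal and 1.88 and 3.56 CPM in ventral Ngn3-low libraries, and its change was -3.40. Onecut2, a factor of gut, liver and pancreas endoderm, stood at 117 and 109 CPM in dorsal and 153 and 212 CPM in ventral Pdx1+ libraries, and at 1.73 and 24.6 CPM in dorsal and 14.4 and 14.4 CPM in ventral Ngn3-low libraries, a change of -3.38 (SE 0.41, adjusted p = 4.09e-06). The 2 stages did not overlap for either gene, and dorsal Ngn3-low library 1 was lower than library 2 by more than 10-fold for both. Mnx1, which is needed for the dorsal bud, fell by 4.12 dorsally and 2.60 ventrally. Among the factors that rose, Glis3, which acts in ducts and beta cells, changed by 2.25 and Hhex, which is needed for the ventral bud, by 2.66 dorsally and -0.07 ventrally, the latter without a call. Hnf4a (0.01) and Prox1 (0.02) did not pass on average, and Gata4 fell (-0.88). Nkx6-2 fell by 4.99, but 12.9% of its exonic bases lie under Inpp5a, which stood below it at E10.5. Sim1, a factor of the dorsal bud at E10.5, had a dorsal change of -1.06 (adjusted p = 0.000685) and an average of -0.42 (adjusted p = 0.257).

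**Figure D4:**
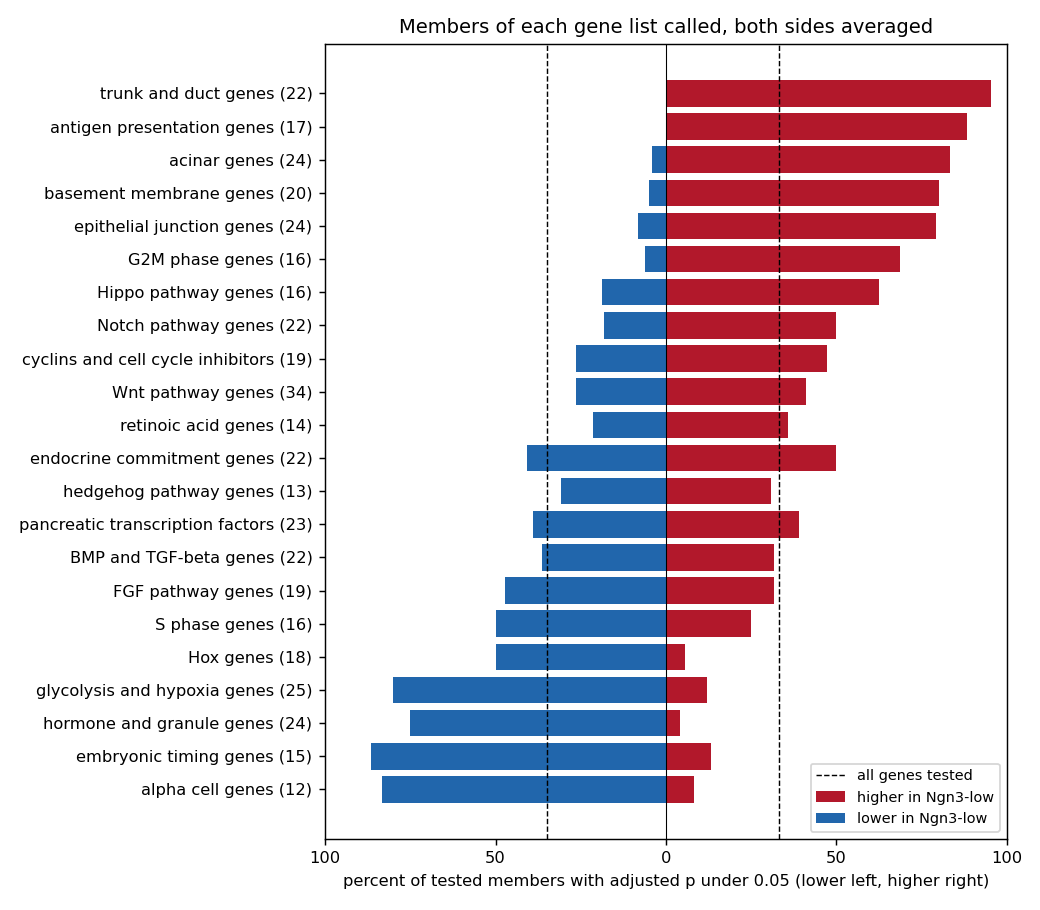
Share of tested members that rose (right) and fell (left) in Ngn3-low cells for each gene list, sides averaged, in percent of members tested, beside the share over all genes. Dashed lines mark 33.1% and 34.9% of all genes. Duct, antigen presentation and acinar lists lie furthest past the right one, and timing, alpha cell and glycolysis lists furthest past the left one. Other lists pass these lines too.

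Genes of the embryonic timing pathway fell. The RNA-binding protein Lin28b blocks the microRNA let-7, whose targets include other genes of the list. Of 15 tested members 13 fell and 2 rose, with a median of -0.72, and of the 9 unshared members 7 fell. Lin28b stood at 23.9 and 22.2 CPM in dorsal and 26.1 and 28.5 CPM in ventral Pdx1+ libraries, and at 4.21 and 3.51 CPM in dorsal and 2.98 and 3.32 CPM in ventral Ngn3-low libraries. The 2 stages did not overlap, and it fell by 2.84 on the log2 scale (SE 0.15, adjusted p = 4.88e-10). Its paralog Lin28a fell by 6.20, with 5.86% of its exonic bases under Gm13061. Nr6a1, an orphan receptor of early embryos, fell by 1.71. Among other members, Igf2bp1 fell by 0.93, Igf2bp2 by 0.72 and Hmga2 by 0.28, the last a call lost in the test against a 1.5-fold change. The 2 members that rose were Mycn, a transcription factor of growing cells (1.68), and the ephrin receptor gene Epha7 (0.31).

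In the FGF pathway 6 of 19 tested members rose and 9 fell, and 5 of the 13 unshared members rose and 5 fell. The receptors Fgfr2 (1.75), which receives FGF10 from the mesenchyme, and Fgfr3 (2.99) rose, as did Fgfr4 (0.47) and Fgfrl1 (0.71). The receptor Fgfr1 fell by 0.35 (adjusted p = 0.0179), a call that was lost in 4 of the 8 fits that left out 1 library: without dorsal Pdx1+ library 1 (0.0512), ventral Pdx1+ library 2 (0.0756), dorsal Ngn3-low library 2 (0.0504) or ventral Ngn3-low library 2 (0.0565). The target Etv4, a transcription factor induced by FGF signals, stood at 169 and 189 CPM in dorsal and 91.1 and 104 CPM in ventral Pdx1+ libraries, and at 6.38 and 8.20 CPM in dorsal and 5.83 and 6.58 CPM in ventral Ngn3-low libraries. It was at least 10 times higher in each Pdx1+ library than in each Ngn3-low library, with a change of -4.29 (SE 0.10, adjusted p = 1.55e-13). The related Etv5 fell by 2.52, with 22.4% of its words shared, the feedback inhibitor Spry2 by 1.87 and the phosphatase Dusp6 by 0.34. The ligand Fgf10 was at 2.98 ± 1.13 and 0.615 ± 0.455 CPM (n = 4 each).

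In the Notch pathway, through which neighbouring cells restrain each other's differentiation, 11 of 22 tested members rose and 4 fell. Among the ligands, Jag1 rose by 0.54 and Dll1 by 0.50, and Dll3 fell by 3.27. The atypical ligand Dlk1, which is imprinted, fell by 1.06 from 1858 ± 713 to 838 ± 56.8 CPM (n = 4 each). Of the receptors, Notch2 rose by 1.81 and Notch1 by 1.03, with 9.76% of the latter's exonic bases overlapped. Notch4 (2.89) and the target Heyl (3.24), both known from blood vessels, rose with the endothelial markers given below. The target Hes1, which represses Neurog3, stood at 62.8 and 63.4 CPM in dorsal and 55.4 and 58.0 CPM in ventral Pdx1+ libraries, and at 88.9 and 115 CPM in dorsal and 87.8 and 129 CPM in ventral Ngn3-low libraries. All Ngn3-low libraries were above all Pdx1+ libraries, with a change of 0.81 (SE 0.12, adjusted p = 2.55e-05). Rbpj, the factor that Notch acts through, did not pass the test (0.03).

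Of 34 tested Wnt genes 14 rose and 9 fell. The coreceptors Lrp5 (0.99) and Lrp6 (1.03), the R-spondin receptor Lgr4 (1.06) and the ligand Wnt7b (1.76) rose. The negative regulator Rnf43, itself a Wnt target, rose by 1.95 and the target Axin2 by 0.51. The secreted inhibitor Sfrp5 stood at 62.8 and 61.6 CPM in dorsal and 90.4 and 87.1 CPM in ventral Pdx1+ libraries, and at 1.05 and 14.47 CPM in dorsal and 4.66 and 3.02 CPM in ventral Ngn3-low libraries. The stages did not overlap, and it fell by 3.77. Dkk3 fell by 2.97. Of 16 Hippo genes 10 rose and 3 fell: the coactivator Wwtr1 (TAZ) rose by 1.85 and its matricellular target Cyr61 by 2.68, while Yap1 did not pass the test (0.18) and Tead2, a DNA-binding partner, fell by 0.65.

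Among 13 tested hedgehog genes 4 rose and 4 fell. The ligand Shh, which is kept out of the pancreas epithelium, was at 13.1 ± 11.3 and 3.54 ± 2.62 CPM (n = 4 each) and did not pass on average, and the target Gli1 (-3.09) fell from levels under 10 CPM. Of 14 retinoic acid genes 5 rose and 3 fell, the latter being the binding proteins Crabp1 (-4.39) and Crabp2 (-4.17) and the receptor Rarb (-2.45). Of 22 BMP and TGF-beta genes 7 rose and 8 fell, and of the 16 unshared members 6 rose and 4 fell. The receptor Tgfbr2 rose by 3.17 and Bmpr2 by 1.29, the ligand Bmp4 fell by 2.34 and the target Id2 by 1.25. Among 18 tested Hox genes, which set position along the body axis, 9 fell and 1, Hoxd8, rose (2.44), all at mean levels under 10 CPM. Unshared Hox genes numbered 12, of which 4 fell and 1 rose. Without ventral Pdx1+ library 1, 20 Hox genes were tested, of which 1 rose and 5 fell.

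Epithelial junction and basement membrane genes rose. Of 24 junction genes 19 rose and 2 fell, with a median of 0.70, and 14 of the 18 unshared members rose. Cdh1, the epithelial cadherin, stood at 582 and 613 CPM in dorsal and 369 and 376 CPM in ventral Pdx1+ libraries, and at 1301 and 1436 CPM in dorsal and 1152 and 1300.0 CPM in ventral Ngn3-low libraries. It was higher in every Ngn3-low library, with a change of 1.46 (SE 0.06, adjusted p = 1.01e-10). Cldn10, a claudin that forms ion pores, rose by 5.66 and Ocln by 1.11. Cldn4 and Spint1 fell by 0.22 and 0.29. Of 20 basement membrane genes 16 rose and 1 fell, with a median of 1.33. Lamc1, the common laminin gamma chain, stood at 290.2 and 295 CPM in dorsal and 416 and 449 CPM in ventral Pdx1+ libraries, and at 1575 and 1734 CPM in dorsal and 1574 and 1809 CPM in ventral Ngn3-low libraries, a change of 2.23 (SE 0.10, adjusted p = 8.25e-11). The stages did not overlap. Lama4, the laminin alpha chain of vessels, rose by 3.90, beside endothelial markers that rose too, and the part of those cells in it was not tested. Col4a1 did not pass (-0.07), and the integrin ligand Npnt fell by 0.89.

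Glycolysis genes and genes known to respond to low oxygen were lower. Of 25 members 20 fell and 3 rose, with a median of -1.34, and 8 of the 11 unshared members fell, with a median of -1.06. The sum was 9490 to 15400 CPM in the Pdx1+ libraries, highest ventrally, and 3860 to 5030 CPM in the Ngn3-low libraries. Ldha, which turns pyruvate into lactate, stood at 851 and 838 CPM in dorsal and 1945 and 1630.0 CPM in ventral Pdx1+ libraries, and at 485 and 394 CPM in dorsal and 509 and 326 CPM in ventral Ngn3-low libraries. It was higher in every Pdx1+ library, with a change of -1.52 (SE 0.18, adjusted p = 2.87e-06). The glucose transporter Slc2a3 fell by 3.56 and the lactate exporter Slc16a3 by 3.43. The enzyme genes Aldoa and Pfkl fell by 1.06 and 1.15. Gapdh, Pgk1 and Eno1 fell by 2.54, 2.98 and 1.74, with 23.8%, 55.3% and 25.4% of their words shared. Vegfa, the vessel growth factor that low oxygen induces, rose by 1.19, as did the stress gene Ndrg1 (1.29).

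Cell cycle genes were counted by phase. Of 16 S phase genes 4 rose and 8 fell, with a median of -0.16, and of 16 G2M genes 11 rose and 1 fell, with a median of 0.39. Dorsally 4 S phase genes rose and 3 fell, against 1 and 11 ventrally. For G2M genes these counts were 13 and 0 dorsally, and 6 and 1 ventrally. Unshared S phase genes numbered 11, of which 3 rose and 4 fell, and 10 of 12 unshared G2M genes rose and 0 fell. Against a 1.5-fold change, 1 S phase gene fell and 3 G2M genes rose. Mki67, a marker of cycling cells, stood at 344 and 306 CPM in dorsal and 399 and 454 CPM in ventral Pdx1+ libraries, and at 692 and 672 CPM in dorsal and 592 and 686 CPM in ventral Ngn3-low libraries. It was higher in each Ngn3-low library, by 1.07 dorsally and 0.58 ventrally. Gins2, a replication factor, fell by 1.59 with 67.3% of its exonic bases under Gse1, and Mcm2 fell by 0.34. Of the cyclins and inhibitors 9 of 19 rose and 5 fell, among them Cdk6, a G1 kinase (3.43), and Ccnd1, a G1 cyclin (-0.70). Antigen presentation genes rose, 15 of 17 with none down and a median of 1.04, and all 8 unshared members rose. B2m, the light chain of MHC class I, rose by 1.69 dorsally and had a ventral change of 0.09, and H2-K1 rose by 0.80. The peptide transporter gene Tap2 rose by 3.82 from 0.478 to 6.48 CPM.

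Marker genes of cells outside the epithelium changed with the stage too, and their part in the results above was not tested. All 10 endothelial markers rose, with a median of 4.68. Their sum was 12.7 to 21.1 CPM in dorsal and 85.9 to 112 CPM in ventral Pdx1+ libraries, and 433 to 858 and 296 to 947 CPM in the Ngn3-low libraries. Cdh5, the cadherin of vessels, stood at 2.36 and 1.41 CPM in dorsal and 12.1 and 3.91 CPM in ventral Pdx1+ libraries, and at 197 and 102 CPM in dorsal and 226 and 66.4 CPM in ventral Ngn3-low libraries. Within each side, Ngn3-low library 1 was higher than library 2. Of 8 immune markers 7 rose dorsally and 1 ventrally, and on average 4 rose. That was 8 with no filter on low counts or with the replicate block, and 2 under the additive model of side and stage. The leukocyte antigen gene Ptprc rose by 3.51. Glial genes rose in 5 of 9, with Sox10, a neural crest factor, at 0.995 ± 0.835 and 26.7 ± 8.40 CPM (n = 4 each) and S100b at 2 against 571 reads, a ratio of 182 (interval 50.1 to 1510).

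Summed marker levels of heart, blood and liver were higher at E10.5, but members of the blood and liver lists went both ways. All 10 cardiac muscle markers fell. Their sum was 11.2 to 32.4 CPM in dorsal and 1370 to 2400 CPM in ventral Pdx1+ libraries, and 3.14 to 4.53 CPM in the Ngn3-low libraries. Nppa, an atrial hormone gene, had 658 reads at E10.5 and none at E14.5, at least 344-fold lower. Of 10 erythroid markers 6 fell and 2 rose, and of the 7 unshared members 3 fell and 2 rose, with a median of 0.04. The erythroid sum was 222 to 617 CPM in the Pdx1+ and 7.06 to 20.4 CPM in the Ngn3-low libraries. Hba-x, an embryonic globin, had 4604 and 2 reads. Of 19 hepatoblast markers 10 fell and 3 rose. Dorsally 7 fell and 3 rose, with a median of -0.07, against 11 and 2 ventrally. Their sum was 5820 to 6290 CPM in ventral and 2660 to 2790 CPM in dorsal Pdx1+ libraries. It was 1540 to 1920 CPM in the Ngn3-low libraries. This list holds Dlk1 and Ttr, given above as a Notch ligand and an alpha cell gene. Dlk1 fell at the high levels given above, so the sum is not one of liver-specific genes alone. Alb rose on average, a call lost under the additive model (log2 1.08, adjusted p = 0.375) and against a 1.5-fold change (1.7, adjusted p = 0.0749). The Alb call was also lost without dorsal Pdx1+ library 1 or 2, ventral Pdx1+ library 2, dorsal Ngn3-low library 2 or ventral Ngn3-low library 1. Its log2 change was 0.46 without dorsal Ngn3-low library 2. Ahsg had 3 reads at E10.5 and 204 at E14.5, a ratio of 43.3 (interval 14.6 to 212). Afp, the fetal serum protein, stood at 63.1 and 39.3 CPM in dorsal and 1604 and 1258 CPM in ventral Pdx1+ libraries, and at 46.3 and 124 CPM in dorsal and 183 and 128 CPM in ventral Ngn3-low libraries. The ventral Pdx1+ libraries were highest, with a ventral change of -3.20 and a dorsal one of 0.74 that did not pass the test. The retinol carrier Rbp4 fell on both sides. Mesenchyme markers differed by side. Dorsally 4 of 15 rose and 2 fell, and their sum was 366 to 385 CPM in Pdx1+ and 914 to 1220 CPM in Ngn3-low libraries, with no overlap. Ventrally 1 rose and 7 fell, and the sums overlapped, at 1020 to 1560 CPM and 870 to 1960 CPM. Of 13 gut and stomach genes 3 rose and 4 fell, and of 8 mesothelium genes 4 rose and 1 fell, a total that was 3 without dorsal Pdx1+ library 1, ventral Pdx1+ library 1 or dorsal Ngn3-low library 2.

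**Figure D5:**
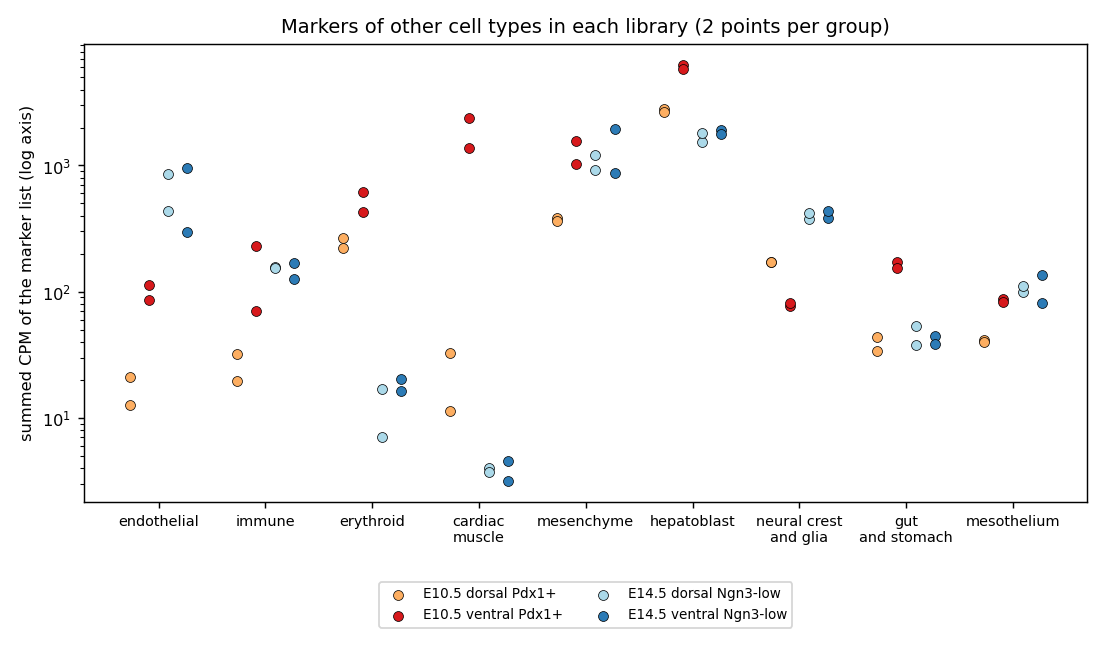
Summed CPM (log axis) of the marker lists of other cell types in each of the 8 libraries, one point per library, grouped by side and stage. Endothelial sums are higher in all Ngn3-low libraries, and cardiac and erythroid sums are highest in the ventral Pdx1+ libraries.

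Beyond the lists, the rule for named genes took the 12 largest changes per direction, from 2172 genes that met its conditions upward and 1470 downward. Further genes that rose were the glutamate receptor subunit Grin3a (6.00), the nucleoside transporter Slc28a3 (5.92), the secreted protease Adamts16 (5.57), the adhesion receptor Gpr126 (5.21), the glutathione transferase Gsta3 (5.19) and the proteoglycan Acan (4.87). Slc28a3 and Gpr126 overlap or share sequence with other genes. Of the 12 genes that fell, 8 do so, among them Slc15a3 under Tmem132a (-5.98, 28.1% of exonic bases overlapped) and Snx22 under Ppib (-5.26, 28.5%). Other such genes were Ocel1, Rpgrip1, Phykpl, Tlcd1 and Nkx6-2. Those without overlap included Nepn, a small leucine-rich proteoglycan (GRCm38 chromosome 10, 52388972 to 52404625), which stood at 2490.0 and 2481 CPM in dorsal and 528 and 478 CPM in ventral Pdx1+ libraries, and at 4.71 and 11.6 CPM in dorsal and 2.01 and 2.13 CPM in ventral Ngn3-low libraries. Every Pdx1+ library was more than 10 times higher than every Ngn3-low library, and the change was -8.08 on average (SE 0.21, adjusted p = 2.2e-12). The others were Slc38a5, Etv4 and Dpysl5, a neuronal adaptor protein (-4.87).

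The next unshared genes down the same order, chosen after their values were seen, were Igdcc3, Pyy, Prtg, Onecut3, Sfrp5, Sept3, Peg10 and Zcchc18. Prtg (protogenin), a surface receptor, fell by 3.92. Igdcc3, an immunoglobulin-domain surface protein, stood at 66.3 and 65.9 CPM in dorsal and 107 and 110.1 CPM in ventral Pdx1+ libraries, and at 4.83 and 5.13 CPM in dorsal and 4.53 and 3.14 CPM in ventral Ngn3-low libraries, a change of -4.28 with no overlap of the stages. Onecut3, the paralog of Onecut2, fell by 3.77, and the imprinted, retrotransposon-derived gene Peg10 by 3.74. Sept3 fell by 3.75 and Zcchc18 by 3.64. In E14.5 Ngn3-high libraries the means of Peg10, Pyy and Zcchc18 were 5005, 1078 and 203 CPM, against 1625, 313 and 71.9 CPM in Pdx1+ libraries. Sept3 stood at 70.9 and 73.2 CPM. Igdcc3, Prtg, Onecut3 and Sfrp5 were at 4.47 CPM or less in Ngn3-high libraries.

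For the difference between the sides, the rule took 6 genes per direction with a mean log2 CPM of at least 4, outside the marker lists of other cell types. Genes under that level could differ more, as Ins1 (6.05) and Ghrl (5.70) did. Chgb (5.26), Ptprn2 (4.91), Pyy (4.30), Gcg (4.14), Vwa5b2 (3.91) and Baiap3 (3.81), the last a protein of dense-core vesicle traffic, had the higher ventral change. Baiap3 stood at 256 and 317 CPM in dorsal and 18.5 and 24.0 CPM in ventral Pdx1+ libraries, and at 3.78 and 6.83 CPM in dorsal and 5.96 and 5.16 CPM in ventral Ngn3-low libraries. It was thus high in the dorsal Pdx1+ libraries only. In the other direction stood Afm, an albumin family gene (-5.34), Reln, the matrix protein reelin (-5.33), Myl9, a smooth muscle light chain (-4.96), Thbs1, a matrix glycoprotein (-4.66), Mrc1, a macrophage receptor (-4.05), and Paqr9 (-3.87). Reln stood at 3.00 and 3.52 CPM in dorsal and 305 and 337 CPM in ventral Pdx1+ libraries, and at 5.20 and 6.95 CPM in dorsal and 17.4 and 12.2 CPM in ventral Ngn3-low libraries. It fell ventrally. The ventral Pdx1+ libraries also had the highest hepatoblast and cardiac sums, and the part of those cells in the fall was not tested. Afm stood at 1.29 and 1.10 CPM in dorsal and 41.0 and 48.8 CPM in ventral Pdx1+ libraries, and at 61.9 and 58.7 CPM in dorsal and 52.5 and 58.7 CPM in ventral Ngn3-low libraries. It was near 1 CPM in the dorsal Pdx1+ libraries alone, and rose there. The Mrc1 difference passed the test in the full set of libraries (adjusted p = 0.0311) but in only 3 of the 8 fits that left out 1 library, with values of -3 to -4.09 in the other 5.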

How the data were processed

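RNA of sorted cells was measured by bulk RNA-seq in 16 libraries, 2 in each of 8 groups, of which 8 were compared here. The authors deposited integer read counts per gene (40824 genes and 92 spike-in rows, the latter left out). Per the submitters' processing notes, reads were aligned to GRCm38 (mm10) with TopHat2 2.1.0 and Bowtie2, and HTSeq 0.6.0 gave the counts. Its strand setting and annotation release are not stated in the sources used here. The table had 0 columns of per-sample values that were not used.

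In R 4.3.3, edgeR 4.0.16 was used to filter counts (filterByExpr), scale them (TMM) and test them by the quasi-likelihood F test, in 1 model of 8 groups, with Benjamini-Hochberg adjustment over 17690 genes and a threshold of 0.05. Contrasts were the mean of the 2 sides, each side, and their difference. SE is the size of the log2 change divided by the square root of F. Ratios of low counts carry exact 95% intervals, and bounds use 3 reads over the group. Both cover counting error only. The 2 libraries of each group differed by more than sampling noise. Overlap and shared words come from the reference annotation and its transcripts, matched by Ensembl identifier, and coordinates from the same annotation in GRCm38.

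The members and the gene lists were chosen with earlier results of these data known. Named genes were the 12 largest changes per direction whose stages did not overlap and whose mean log2 CPM was at least 4, the 6 largest differences between sides per direction, up to 4 called members per list with a log2 CPM of 3 or more, members that describe a role, and a fixed set. Some genes that the rule took are not reported here. The count of unshared genes was added after the data were seen. On simulated counts over 17690 genes, the side-averaged test recovered 61% of 100 genes changed 2-fold and 88% of 100 changed 4-fold, with 10 false calls. Only those 200 genes were changed there, while 68% of genes were called in the data, so these rates do not describe the real comparison. Alternatives were DESeq2 1.42.0, other scalings, no filter, a test against a 1.5-fold change, an additive model, the replicate block, and each library left out. Figures used Python 3.11.15 and matplotlib 3.10.9.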

Additional observations from a re-analysis of the deposited data

Results flagged for a closer look

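For 105 named genes the change from Pdx1+ to Ngn3-low cells differed between the 2 sides, tested in edgeR as a contrast of the 2 changes in 1 model (adjusted p under 0.05 over 17690 genes). Over all tested genes, 2179 (12.3%) did so. The rule for named genes took 6 genes per direction for this very difference, so the 105 is a list and is not read against that share. Values are the ventral minus the dorsal log2 change. Genes of endocrine cells, with the Notch ligand gene Dll3, had the highest values: Ins1 (6.05), Ghrl (5.70), Fev (5.66), Chgb (5.26), Ptprn2 (4.91), Dll3 (4.81), Pcsk2 (4.8), Pax6 (4.52), Irx2 (4.36), Pyy (4.30), Isl1 (4.30), Gcg (4.14) and Neurod1 (4.14).

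Between 3 and 4 stood Vwa5b2 (3.91), Baiap3 (3.81), Slc38a5 (3.75), Irx1 (3.56), Insm1 (3.35), Neurog3 (3.24), Tmem27 (3.23), Clps (3.23), Ret (3.17), Sox10 (3.14), Cdh17 (3.08) and Cpe (3.07). They include Neurog3 and the granule enzyme Cpe. Between 2 and 3 stood Slc28a3 (2.57), Nkx2-2 (2.50), Chrd (2.40), Cela1 (2.36), Pnliprp1 (2.35), Wnk3 (2.29), Nrarp (2.17), Cckar (2.13), Nkx6-1 (2.09) and Cdkn1a (2.01), among them the acinar genes Cela1 and Pnliprp1. Smaller positive differences were those of Rbpjl (1.86), Dll4 (1.78), Krt7 (1.71), Peg10 (1.65), Mnx1 (1.52), Zcchc18 (1.42), Lfng (1.37), Spp1 (1.36), Ptf1a (1.32), Cpa1 (1.21), Rbp4 (1.18), Cldn3 (1.15), Pdx1 (1.12), Dll1 (1.06), Snx22 (1.02), Sept3 (0.99), Muc1 (0.97), Nr6a1 (0.97), Spint1 (0.90), Axin2 (0.83), Foxa2 (0.82), Erbb3 (0.74), Spry2 (0.70), Etv4 (0.65), Npnt (0.65), Cdh1 (0.52), Wnt7b (0.42) and Inpp5a (0.42), which include Pdx1, Ptf1a and Spp1.

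A lower ventral than dorsal change was called for cardiac, liver, muscle and matrix genes, among others: Hhex (-2.73), Tgfb1 (-2.86), Col1a1 (-3.64), Paqr9 (-3.87), Psmb8 (-3.91), Afp (-3.94), Mrc1 (-4.05), Alb (-4.51), Thbs1 (-4.66), Itih2 (-4.86), Myl9 (-4.96), Reln (-5.33), Afm (-5.34) and Tnnt2 (-6.10). Their ventral Pdx1+ libraries also held the highest cardiac and hepatoblast sums. The part of those cells in the differences was not tested. The Mrc1 difference passed in only 3 of the 8 fits that left out 1 library, and the Gcg difference did not pass without ventral Ngn3-low library 2. Between -1 and -2 stood Krt19 (-1.05), Wwtr1 (-1.06), Fgfr2 (-1.07), Gata6 (-1.07), Igdcc3 (-1.10), Ldha (-1.16), Cdkn1c (-1.16), Ehf (-1.22), Fgfr3 (-1.23), Ndrg1 (-1.24), Cyr61 (-1.25), Pgk1 (-1.26), Itgb4 (-1.34), B2m (-1.59), Rarb (-1.65), Glis3 (-1.68), Ctgf (-1.72), Cdk6 (-1.73), Aldh1a1 (-1.78) and Mycn (-1.88). The smallest were Rrm2 (-0.40), Mki67 (-0.48), Prom1 (-0.49), Kif11 (-0.53), Lgr4 (-0.60), Ambp (-0.79), Id2 (-0.85) and Krt18 (-0.95). Groups of 2 libraries are too small to test for a library that stands apart.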

How the results depend on the processing

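The 4 counts of changed genes (12028 on average, 10624 dorsal, 9816 ventral and 2179 for the difference) stayed within 1.5 times under RLE or upper-quartile scaling, DESeq2, no filter on low counts and the fit of the 8 libraries alone. Against a 1.5-fold change they were 6441, 6133, 5410 and 911. In the fit of unshared genes alone, added after the data were seen, 7224, 6277 and 5553 of 11114 genes passed for the first 3, with fewer genes tested. Leaving out 1 library gave 11246 to 11937, 8793 to 10857, 8356 to 9805 and 1330 to 1995, the lowest difference count without dorsal Pdx1+ library 2 (1330). Pairing by replicate number could not be established: replicate 1 deviations of the 4 groups correlated at -0.01 to 0.29 across genes, and with the replicate block 12318, 10982, 10291 and 2677 genes passed, and 419 calls of named genes and list members. The fit of unshared genes alone moved Pdx1 to a call on average (-0.16, adjusted p = 0.0349), and Ambp too (-0.2, adjusted p = 0.00565). No named gene changed direction under an alternative where it was called in the main fit or in that alternative. Changes of sign without a call were not counted. An additive model of side and stage lost the call of 18 of 251 gene results and the 1.5-fold test that of 34 of 266. Under the additive model these included Chgb (-2.77, adjusted p = 0.0573), Reln (-2.52, adjusted p = 0.0677), Afm (2.19, adjusted p = 0.0673) and Mrc1 (2.09, adjusted p = 0.0703). Depth limits genes near the floor, among them late enzymes and hormones, to bounds and wide intervals, and 2 libraries a group limit the tests of the difference most.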
